A study of Mus musculus with 18 samples.

Results

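Ceramide synthases and fatty acid elongases were followed in the brains of WT and Pcm1-/- mice, gene by gene and library by library. The set holds 10 of the 38561 genes counted, namely *Cers1*, *Cers2*, *Cers4*, *Cers5*, *Cers6*, *Elovl1*, *Elovl4*, *Elovl5*, *Elovl6* and *Elovl7*, each matched by its symbol to an Ensembl identifier. The members were chosen by measured values of these same libraries, because *Cers6* and *Elovl4* had higher levels in the mutants. The difference between the genotypes is therefore given for the members as a description, without p-values. The differences between brain regions were not used in the choice and were tested. No numeric threshold defined the set. The 3 other genes of both families are given beside the members.

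RNA was sequenced from striatum, hippocampus and frontal cortex of 6 adult mice on a C57 Bl6J background, 3 WT and 3 Pcm1-/- littermates, which gave 18 libraries, 3 per genotype and region. The Pcm1-/- mice carried a gene-trap insertion in *Pcm1*, a gene for a scaffold protein of centriolar satellites, in every cell, and the line came from gene-trap embryonic stem cells with at least 3 generations of backcross. The labels give no other allele and no treatment for either genotype. Each animal gave 1 library per region, so the regions of a genotype share their animals while the genotypes do not. Values below are listed in the order of replicate numbers. These numbers name the same animals in every region of the mutants and in WT frontal cortex and hippocampus, whereas WT striatum replicates 1, 2 and 3 came from the animals of WT frontal cortex replicates 3, 1 and 2.

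Ceramide synthases join a fatty acid to a sphingoid base and so make ceramide, the backbone of sphingomyelin, of the galactosylceramide of myelin and of gangliosides. The synthases differ in the length of the fatty acid they prefer. Elongases of the ELOVL family catalyze the first, rate-limiting step of the cycle that lengthens fatty acids in the endoplasmic reticulum, and they provide the long acyl chains that several of the ceramide synthases use. In the brain, very long acyl chains are typical of myelin lipids, and stearoyl chains of neuronal gangliosides.

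All 10 members had an entry among the RefSeq promoters of GRCm38.p6, with 12 promoters in all. The 250 bases before the start of 4 members are shown because these are the genes the results turn on, a pair that was higher in the mutants and a pair that moved with myelin genes. Capitals mark matches on either strand to the box CCAAT, the GC box GGGCGG and the E-box CACGTG, and overlapping matches run together.
Cers6, chr2:68861191-68861440, plus strand: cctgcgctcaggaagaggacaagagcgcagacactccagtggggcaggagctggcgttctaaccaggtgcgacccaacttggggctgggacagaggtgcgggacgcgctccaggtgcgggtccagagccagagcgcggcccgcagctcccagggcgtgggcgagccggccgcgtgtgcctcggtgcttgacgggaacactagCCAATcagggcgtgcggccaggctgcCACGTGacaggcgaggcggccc
Elovl4, chr9:83806306-83806555, minus strand: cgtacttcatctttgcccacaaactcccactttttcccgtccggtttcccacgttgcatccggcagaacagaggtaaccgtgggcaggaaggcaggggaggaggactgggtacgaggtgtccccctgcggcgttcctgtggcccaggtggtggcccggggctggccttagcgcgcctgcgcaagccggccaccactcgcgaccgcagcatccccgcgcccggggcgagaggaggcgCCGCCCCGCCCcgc
Cers2, chr3:95314940-95315189, plus strand: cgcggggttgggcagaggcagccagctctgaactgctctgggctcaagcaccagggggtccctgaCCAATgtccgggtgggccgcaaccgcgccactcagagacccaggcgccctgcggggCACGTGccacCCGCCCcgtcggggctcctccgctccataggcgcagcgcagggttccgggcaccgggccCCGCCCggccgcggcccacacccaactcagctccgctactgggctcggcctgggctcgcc
Elovl1, chr4:118427843-118428092, plus strand: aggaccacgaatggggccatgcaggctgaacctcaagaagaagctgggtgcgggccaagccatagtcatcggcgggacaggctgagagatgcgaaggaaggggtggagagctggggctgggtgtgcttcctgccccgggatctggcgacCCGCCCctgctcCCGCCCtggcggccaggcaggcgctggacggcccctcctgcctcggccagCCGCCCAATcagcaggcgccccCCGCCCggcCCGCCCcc
The *Cers6* window held 1 CCAAT and 1 CACGTG match, and the *Elovl4* window 2 GGGCGG matches and no other. The *Cers2* window held 1 CCAAT, 2 GGGCGG and 1 CACGTG match, and the *Elovl1* window 1 CCAAT and 5 GGGCGG matches. Of 32851 promoters searched in the same way, 33.85% held the box CCAAT, 32.74% held GGGCGG and 6.021% held CACGTG. The letters TCACNCCAC, a sterol element found in 1.053% of promoters, and TATAAA, found in 12.37%, were in none of the 12 windows. The GC content of the 4 windows was 70.4% in *Cers6*, 69.6% in *Elovl4*, 74.8% in *Cers2* and 72% in *Elovl1*, with a median of 52.4% over all promoters. *Cers2* and *Elovl1* had a second promoter each that is not printed. That of *Cers2* had a GC content of 54% and no match to these motifs, and that of *Elovl1* a GC content of 58%, 2 GGGCGG matches and no other. A match describes the letters of the window and was not tested as a binding site.

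Reads counted on genes ranged from 24950537 to 33405081 per library. *Pcm1* was between 134 and 164 CPM (counts scaled to library size with edgeR's TMM factors) on average in the WT groups and between 12.2 and 16.7 CPM in the Pcm1-/- groups, so no group went against its label. Region markers followed the labels. The 6 striatal genes summed to 5162 to 6675 CPM in striatal libraries and to 93.1 to 193 CPM in the others, and the 7 cortical and 5 hippocampal genes were likewise highest in their own region. 1 library stood apart. WT striatum replicate 3 had 5987 CPM summed over 5 choroid plexus genes, with 50.9 and 52.0 CPM in the other WT striatal libraries. Such RNA also varied in the hippocampus, from 221 to 6282 CPM, and was between 3.18 and 10.3 CPM in the frontal cortex. All WT striatal libraries were sequenced on lane 5 and all mutant striatal libraries on lanes 3 and 4, so in the striatum lane and genotype cannot be told apart.

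**Figure D1:**
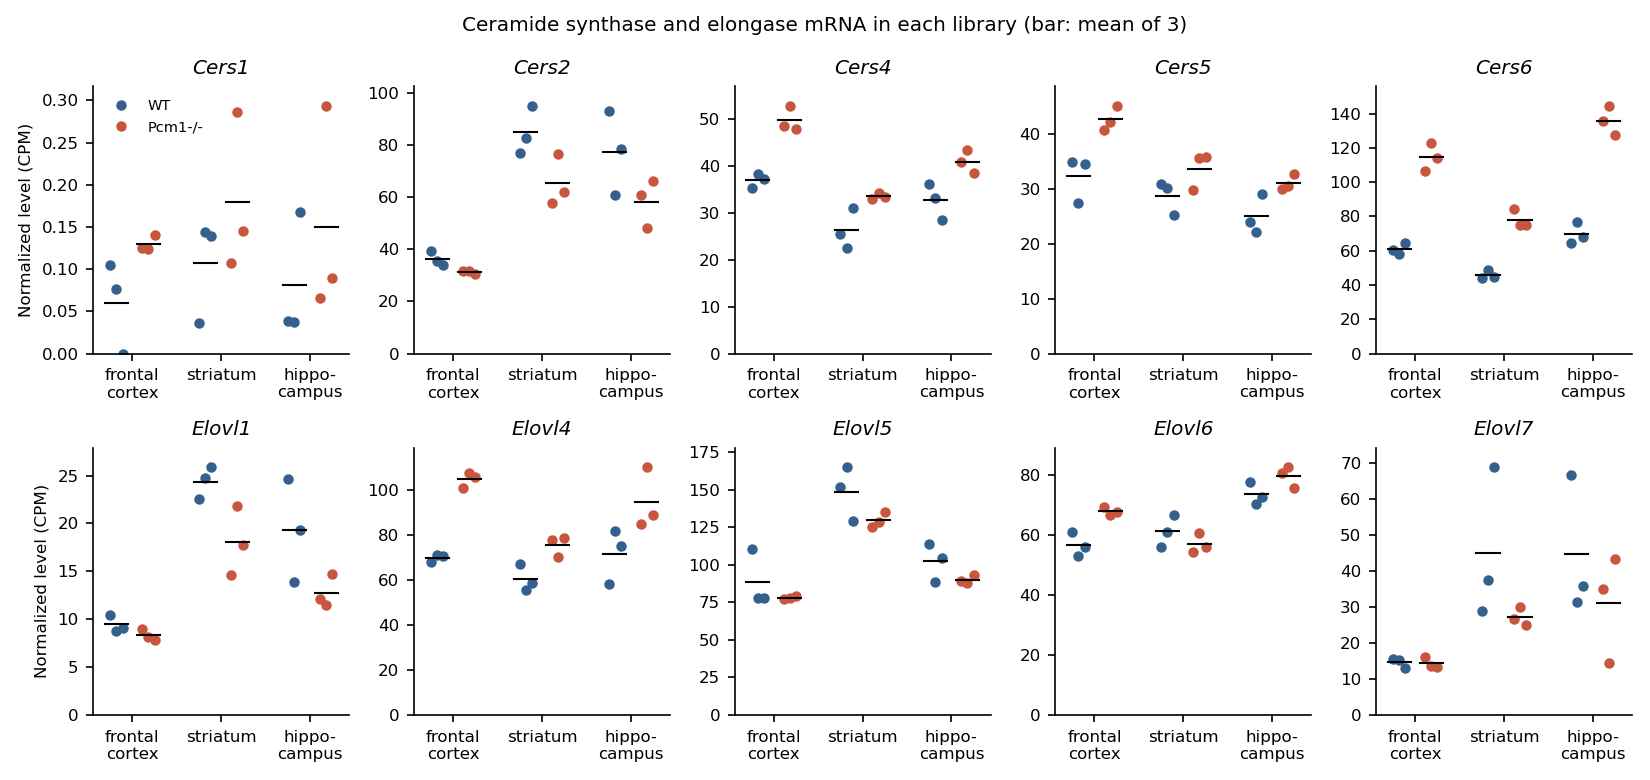
Normalized level (CPM) of each of the 10 members in every library, by region, with WT in blue and Pcm1-/- in red, and the mean of 3 libraries as a black bar; each panel has its own axis from 0. The groups of *Cers6* did not overlap between genotypes in any region, *Cers2* and *Elovl1* were lowest in the frontal cortex, and *Cers1* stayed at or under 0.294 CPM.

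Of the 10 members, 9 passed the filter on low counts, which kept the 17545 genes that reached 10 counts in any library. *Cers1* did not pass. In WT mice, 6 of the 9 differed between striatum and frontal cortex at an adjusted p under 0.05, 4 of them higher and 2 lower in the striatum, where 48.3% of all genes tested differed. Between hippocampus and frontal cortex 5 of the 9 differed, 4 higher and 1 lower in the hippocampus, with 37.7% of all genes. Between striatum and hippocampus 4 differed, 1 higher and 3 lower in the striatum, with 35.9% of all genes. In Pcm1-/- mice the same comparisons gave 9 of 9 members with 51.0% of all genes, 7 with 37.8% and 6 with 41.5%. The count of 7 fell to 4 with lane as a covariate, to 4 without mutant frontal cortex replicate 2 or mutant hippocampus replicate 3 and to 3 without mutant hippocampus replicate 1, and the count of 6 to 3 without replicate 2 of mutant striatum or of mutant hippocampus. Calls over all genes fell too, from 6624 to between 5427 and 5664 in the first case and from 7284 to 6487 and 6809 in the other. The 6, 5 and 4 members called in WT mice were all called in the same direction in the mutants, which are other animals, as were 85.9%, 77.1% and 88.2% of all genes called in WT mice. Members and genes overall were thus called often in every pair of regions, and the 3 comparisons of a genotype share libraries.

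**Figure D2:**
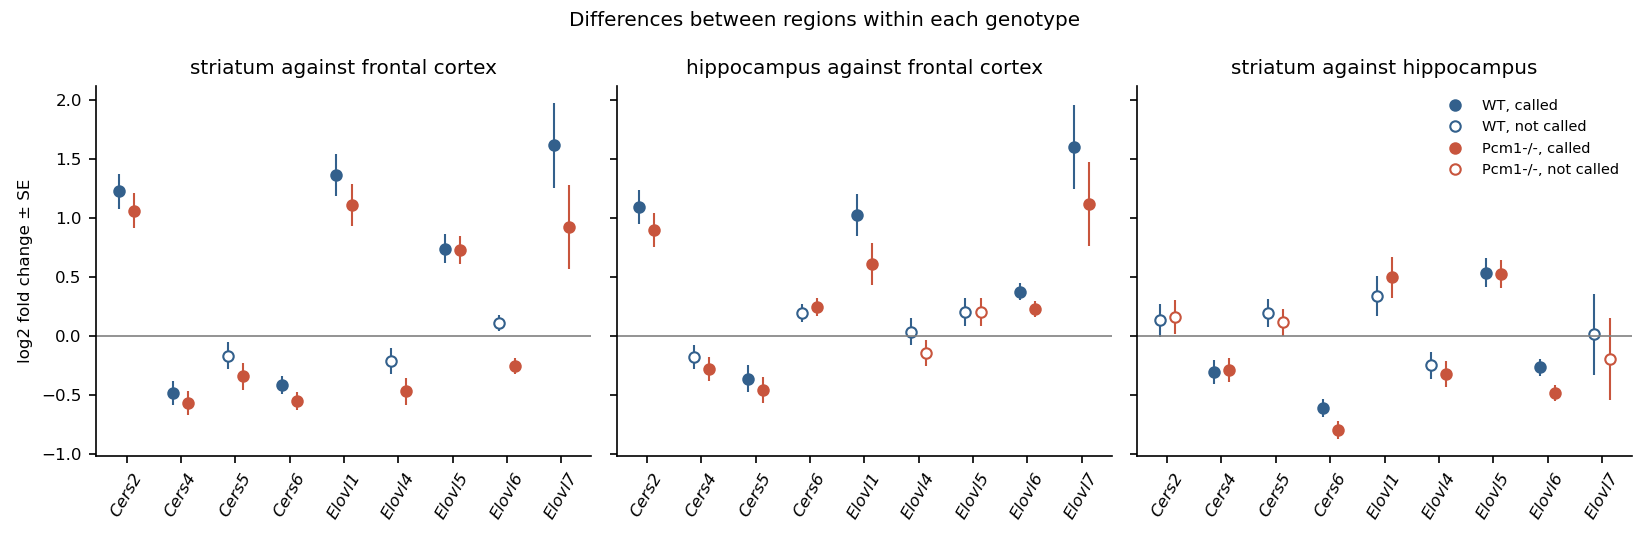
Log2 fold change between regions with its SE for the 9 members tested, in WT (blue) and Pcm1-/- mice (red), from 1 fit of all 18 libraries; filled points passed an adjusted p under 0.05 and open points did not. *Cers2*, *Elovl1*, *Elovl5* and *Elovl7* lay above 0 in the striatum against the frontal cortex in both genotypes, and *Cers4* and *Cers6* below.

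*Cers1* (chromosome 8, 70315775 to 70331592, plus strand, GRCm38), the synthase of stearoyl ceramide known from neurons, was counted 0 to 9 times per library. Its level was 0.0604 ± 0.0543 CPM (SD, n = 3) in the cortex of WT mice and 0.130 ± 0.00933 CPM in that of the mutants, and no library exceeded 0.294 CPM. The 1 library without a read, WT frontal cortex replicate 3, allows up to 0.108 CPM, the level of 3 counts. *Cers1* shares 1349 exon bases, 42.54% of its exons, with *Gdf1* on the same strand. The *Gdf1* identifier of the annotation used here was not among the genes counted. How reads on the shared bases were assigned is not given in the sources used here. The level of *Cers1* is therefore uncertain, and no direction was read from it. The exons of the other members overlap other genes by at most 7.22% of their bases, on the opposite strand. *Cers3*, the synthase of the epidermis, was between 0.253 and 0.476 CPM on average and was called in no comparison.

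*Cers2* (chromosome 3, 95314791 to 95323599, plus strand), the synthase of very long-chain ceramides that oligodendrocytes express strongly, was higher in striatum and hippocampus than in frontal cortex. WT libraries gave 39.5, 35.5 and 33.9 CPM in the frontal cortex, 77.0, 82.7 and 95.1 CPM in the striatum and 93.3, 60.9 and 78.4 CPM in the hippocampus. In Pcm1-/- mice they gave 31.5, 31.7 and 30.7 CPM, 57.7, 76.5 and 62.1 CPM, and 60.7, 48.2 and 66.1 CPM. Every striatal and hippocampal library lay above every cortical library of its genotype. The log2 fold change against the frontal cortex in WT mice was 1.23 ± 0.146 (SE) for the striatum, with an adjusted p of 2.68e-06 by edgeR's quasi-likelihood test, and 1.10 ± 0.146 for the hippocampus, with an adjusted p of 1.88e-05. The mutants gave 1.06 (adjusted p 1.17e-05) and 0.90 (adjusted p 0.000121). All 3 animals of each genotype showed both differences. Striatum and hippocampus did not pass the test against each other, with 0.13 ± 0.143 in WT mice and 0.16 ± 0.143 in mutants. The 9 oligodendrocyte and myelin markers moved with it, all 9 being higher in WT striatum and in WT hippocampus than in frontal cortex, with median log2 differences of 2.08 and 1.77. Other lists differed too. Choroid plexus and ependymal sums were higher in WT striatum and hippocampus than in WT frontal cortex, without overlap. Neuronal sums were lower, with means of 3575 and 5475 CPM against 7993 CPM. The part of any list in the level of *Cers2* was not tested. In dissected tissue, fewer cells of a type and less RNA per cell cannot be told apart.

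*Cers4* (chromosome 8, 4493026 to 4531680, plus strand), a synthase with a preference for stearoyl and somewhat longer chains, had the opposite order. It measured 35.3, 38.4 and 37.3 CPM in WT frontal cortex, 25.6, 22.6 and 31.0 CPM in WT striatum and 36.3, 33.2 and 28.5 CPM in WT hippocampus. Mutant libraries gave 48.5, 52.9 and 47.9 CPM, 33.0, 34.3 and 33.4 CPM, and 40.9, 43.4 and 38.6 CPM. The striatum lay below the frontal cortex without overlap in both genotypes. The log2 fold change was −0.49 ± 0.102 in WT mice (adjusted p 0.000805) and −0.57 ± 0.101 in mutants (adjusted p 0.000163). Against the hippocampus the striatum was lower by −0.31 in WT mice (adjusted p 0.0262) and −0.29 in mutants (adjusted p 0.0312), and both calls were lost with lane as a covariate (adjusted p 0.125 and 0.0522). The WT call was also lost in a fit of the 6 libraries alone (adjusted p 0.123) and without striatum or hippocampus replicate 1 or 2, and the mutant call without any striatal library or without hippocampus replicate 1 or 2. Over 27 settings these adjusted p values ran from 0.00165 to 0.151 and from 0.0107 to 0.101. The hippocampus was below the frontal cortex in the mutants (−0.28, adjusted p 0.0358), a call that did not survive leaving out any 1 of 5 of the 6 libraries compared, all but hippocampus replicate 2. In WT mice that difference was −0.18 and did not pass.

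*Cers5* (chromosome 15, 99734881 to 99772885, minus strand), a synthase of palmitoyl ceramide, differed less than *Cers4* between striatum and frontal cortex. Between hippocampus and frontal cortex it differed more than *Cers4*. WT libraries gave 34.9, 27.4 and 34.5 CPM in the frontal cortex, 30.9, 30.1 and 25.2 CPM in the striatum and 24.0, 22.2 and 29.0 CPM in the hippocampus, and the ranges overlapped. Mutant libraries gave 40.8, 42.2 and 45.1 CPM in the frontal cortex, 29.7, 35.5 and 35.7 CPM in the striatum and 30.0, 30.5 and 32.8 CPM in the hippocampus, with the cortex apart. The hippocampus was lower than the frontal cortex in WT mice (log2 −0.36 ± 0.115, adjusted p 0.0197) and in mutants (−0.46 ± 0.114, adjusted p 0.00430). The WT call was lost in a fit of the 6 libraries alone and without any 1 of 4 libraries, frontal cortex replicates 1 and 3 and hippocampus replicates 1 and 2, and its adjusted p ran from 0.000766 to 0.0958 over 27 settings. The striatum was lower than the frontal cortex in mutants (−0.34, adjusted p 0.0187), a call lost with lane as a covariate (adjusted p 0.124) and without mutant striatum replicate 1 or mutant frontal cortex replicate 3. In WT mice that difference was −0.17 with an adjusted p of 0.243 and passed with the animal as a block (adjusted p 0.0493, range over the settings 0.0493 to 0.634). WT striatum against hippocampus gave 0.20, which likewise passed under the animal block (adjusted p 0.0311, range 0.0311 to 0.622) and without WT hippocampus replicate 3.

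*Cers6* (chromosome 2, 68861441 to 69114282, plus strand), another synthase of palmitoyl ceramide, was lowest in the striatum in both genotypes. The WT libraries gave 60.2, 57.8 and 64.7 CPM in the frontal cortex, 44.1, 48.5 and 44.4 CPM in the striatum and 64.7, 76.5 and 68.0 CPM in the hippocampus. Mutant libraries gave 106.5, 122.6 and 114.3 CPM, 84.6, 75.0 and 75.0 CPM, and 135.7, 144.6 and 127.5 CPM. The striatum was apart from both other regions in each genotype. Striatum against hippocampus gave −0.61 ± 0.0799 in WT mice (adjusted p 9.76e-06) and −0.80 ± 0.0788 in mutants (adjusted p 2.80e-07). Against the frontal cortex the striatum was lower by −0.42 (adjusted p 0.000381) and −0.55 (adjusted p 1.80e-05). All 4 calls held in every one of 27 settings. The hippocampus was higher than the frontal cortex in mutants (0.25 ± 0.0781, adjusted p 0.0193), a call lost with lane as a covariate (adjusted p 0.0702) and without mutant frontal cortex replicate 1 or mutant hippocampus replicate 1 or 2. In WT mice the difference was 0.20 ± 0.0793 with an adjusted p of 0.0632, and it passed with DESeq2 and without WT frontal cortex replicate 3 or WT hippocampus replicate 1. Whether the regional differences of *Cers6* differed between the genotypes was not tested.

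*Elovl1* (chromosome 4, 118428093 to 118432953, plus strand), which makes the saturated very long chains that CERS2 uses, had the regional order of *Cers2*. WT libraries gave 10.5, 8.8 and 9.1 CPM in the frontal cortex, 22.5, 24.7 and 25.9 CPM in the striatum and 24.6, 13.9 and 19.3 CPM in the hippocampus. Mutant libraries gave 9.0, 8.2 and 7.8 CPM, 14.6, 21.8 and 17.7 CPM, and 12.1, 11.5 and 14.7 CPM. The cortex was the lowest region in every animal. Striatum against frontal cortex was 1.36 ± 0.177 in WT mice (adjusted p 7.19e-06) and 1.11 ± 0.178 in mutants (adjusted p 5.66e-05), and both held in all 27 settings. Hippocampus against frontal cortex was 1.03 ± 0.177 (adjusted p 0.000234) and 0.61 ± 0.178 (adjusted p 0.0121), and the mutant call was lost without mutant hippocampus replicate 3. The striatum exceeded the hippocampus in mutants (0.50 ± 0.174, adjusted p 0.0293), which was lost with lane as a covariate (adjusted p 0.0613) and without mutant striatum replicate 2 or 3 or mutant hippocampus replicate 1 or 2. In WT mice that difference was 0.34 ± 0.171 and did not pass, except without WT hippocampus replicate 1.

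*Elovl4* (chromosome 9, 83778692 to 83806277, minus strand), which makes the longest chains and is mutated in a form of macular dystrophy, averaged 60.3 to 71.6 CPM in the WT regions. WT libraries gave 68.1, 71.0 and 70.4 CPM in the frontal cortex, 66.9, 55.3 and 58.6 CPM in the striatum and 58.3, 81.5 and 75.1 CPM in the hippocampus. No WT comparison passed, with log2 fold changes of −0.21 ± 0.112 for striatum against frontal cortex, 0.037 ± 0.112 for hippocampus against frontal cortex and −0.25 ± 0.112 for striatum against hippocampus. The striatum lay below the frontal cortex without overlap, and below both other regions in all 3 WT animals. Striatum against hippocampus passed without WT hippocampus replicate 1, the lowest of its group. Mutant libraries gave 100.5, 107.3 and 105.8 CPM, 77.7, 70.1 and 78.5 CPM, and 84.7, 109.9 and 88.7 CPM. In mutants the striatum was below the frontal cortex (−0.47 ± 0.112, adjusted p 0.00199) and below the hippocampus (−0.32 ± 0.112, adjusted p 0.0278), the latter call being lost without mutant striatum replicate 2 or mutant hippocampus replicate 2.

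*Elovl5* (chromosome 9, 77917364 to 77984519, plus strand), an elongase of polyunsaturated fatty acids, was highest in the striatum. WT libraries gave 110.3, 78.0 and 78.1 CPM in the frontal cortex, 151.8, 165.1 and 129.2 CPM in the striatum and 114.1, 88.6 and 104.4 CPM in the hippocampus. Mutant libraries gave 77.6, 77.8 and 79.4 CPM, 125.5, 128.9 and 135.3 CPM, and 89.2, 88.3 and 93.0 CPM. All 6 striatal libraries exceeded all libraries of the other regions. The log2 fold change against the frontal cortex was 0.74 ± 0.120 in WT mice (adjusted p 7.25e-05) and 0.73 ± 0.120 in mutants (adjusted p 7.68e-05). Against the hippocampus it was 0.54 ± 0.120 (adjusted p 0.00179) and 0.53 ± 0.120 (adjusted p 0.00185). These 4 calls held in all 27 settings. Hippocampus against frontal cortex was 0.20 ± 0.120 in each genotype and passed with the animal as a block, with adjusted p values of 0.0190 in WT mice (0.00835 to 0.528 over the settings) and 0.0239 in mutants (0.0101 to 0.580). The WT difference also passed without WT frontal cortex replicate 1, and the mutant one in a fit of its 6 libraries alone.

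*Elovl6* (chromosome 3, 129532355 to 129638495, plus strand), which lengthens palmitate to stearate, was highest in the hippocampus. WT libraries gave 61.1, 53.2 and 56.1 CPM in the frontal cortex, 56.1, 61.1 and 66.8 CPM in the striatum and 77.8, 70.6 and 72.9 CPM in the hippocampus. Mutant libraries gave 69.5, 66.9 and 67.8 CPM, 54.4, 60.7 and 56.0 CPM, and 80.8, 82.7 and 75.8 CPM. The hippocampus was apart from both other regions in each genotype. Hippocampus against frontal cortex was 0.38 ± 0.0717 in WT mice (adjusted p 0.000558) and 0.23 ± 0.0712 in mutants (adjusted p 0.0181), and the mutant call was lost with lane as a covariate (adjusted p 0.0986) and without mutant frontal cortex replicate 2 or mutant hippocampus replicate 1 or 2. Striatum against hippocampus was −0.27 ± 0.0716 (adjusted p 0.00745) and −0.48 ± 0.0716 (adjusted p 3.17e-05). Striatum against frontal cortex had opposite signs, 0.11 ± 0.0718 in WT mice, which did not pass (adjusted p 0.222), and −0.26 ± 0.0716 in mutants (adjusted p 0.00670). The difference between these values was not tested.

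*Elovl7* (chromosome 13, 108214404 to 108285683, plus strand), an elongase of saturated long chains, varied widely among the libraries of striatum and hippocampus. WT libraries gave 15.6, 15.3 and 13.2 CPM in the frontal cortex, 29.0, 37.5 and 68.8 CPM in the striatum and 66.5, 31.5 and 35.9 CPM in the hippocampus. The highest striatal value was that of WT striatum replicate 3 and the highest hippocampal value that of WT hippocampus replicate 1, the libraries with 5987 and 6282 CPM of choroid plexus genes. The part of that RNA in the level of *Elovl7* was not tested. Mutant libraries gave 16.0, 13.6 and 13.4 CPM, 26.6, 30.0 and 25.0 CPM, and 35.0, 14.5 and 43.4 CPM, where the lowest hippocampal value was that of replicate 2, with 221 CPM of choroid plexus genes. WT striatum against frontal cortex was 1.62 ± 0.359 (adjusted p 0.00130), and 1.18 without WT striatum replicate 3 (adjusted p 0.0102). WT hippocampus against frontal cortex was 1.60 ± 0.360 (adjusted p 0.00212). In mutants the values were 0.92 (adjusted p 0.0400) and 1.12 (adjusted p 0.0204), and with lane as a covariate the adjusted p was 0.0838 and 0.0568. The first of these was lost without any 1 of the 6 libraries compared and the other without 4 of them, mutant frontal cortex replicates 2 and 3 and mutant hippocampus replicates 1 and 3. Striatum and hippocampus did not pass against each other, and the WT difference of 0.016 ± 0.343 turned to −0.42 without WT striatum replicate 3.

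*Elovl2*, an elongase of long polyunsaturated chains, was between 21.4 and 24.1 CPM on average in the 6 groups and was called in no comparison of regions or genotypes. *Elovl3*, known from skin and brown fat, was too low to be tested.

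Levels were compared between genes per kilobase of exon (RPKM, computed as CPM over the summed exon length of the annotation). In WT frontal cortex *Elovl5* (25.2 RPKM) and *Elovl4* (23.1 RPKM) led with overlapping libraries, followed by *Cers2* (9.87), *Cers5* (9.11) and *Elovl6* (8.83), whose neighbours also overlapped. *Cers6* (6.86 RPKM), *Elovl7* (3.65), *Elovl1* (3.47) and *Cers4* (3.02) were lower, and *Cers1* was at 0.0190 RPKM. In WT striatum *Elovl5* reached 42.2 RPKM, apart from *Cers2* at 23.1 RPKM, which overlapped *Elovl4* at 19.9 RPKM. In WT hippocampus *Elovl5* (29.1 RPKM), *Elovl4* (23.7) and *Cers2* (21.1) overlapped in that order. On this length, *Cers4* was the lowest member above *Cers1* in the WT groups. In the mutants, likewise on this length, *Elovl4* stood first and apart from *Elovl5* in the frontal cortex (34.5 against 22.2 RPKM) and in the hippocampus (31.2 against 25.6 RPKM), while *Elovl5* stayed first in the striatum (36.9 against 24.9 RPKM). This order depended on the length used. With the length of the longest transcript, *Cers2* was at 16.4, 38.3 and 35.0 RPKM in WT frontal cortex, striatum and hippocampus. In WT hippocampus it then stood above *Elovl4* (23.9 RPKM) and below *Elovl5* (36.8 RPKM), and in WT striatum *Elovl4* was at 20.1 RPKM. In WT frontal cortex *Elovl7* (3.65 RPKM) then fell below *Cers4* (3.90 RPKM), and in mutant hippocampus *Elovl5* (32.4 RPKM) stood above *Elovl4* (31.5 RPKM). The order of regions and of genotypes within a gene does not depend on its length.

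The make-up of the synthase family followed from these levels. *Cers2* made up 34.2% ± 2.37 (SD, n = 3) of the summed RPKM of the 5 ceramide synthases in WT frontal cortex, 59.8% ± 3.53 in WT striatum and 54.1% ± 5.68 in WT hippocampus. *Cers6* made up 23.8% ± 1.27, 13.4% ± 0.967 and 20.6% ± 4.17. In Pcm1-/- mice the share of *Cers6* was 34.3% ± 1.26, 22.8% ± 3.16 and 35.4% ± 3.54, and that of *Cers2* 22.7% ± 0.935, 45.6% ± 3.29 and 36.5% ± 4.50. In every region each mutant library had a higher *Cers6* share and a lower *Cers2* share than each WT library. Among the 5 elongases, *Elovl4* made up 36.2% ± 3.88, 21.7% ± 2.66 and 29.1% ± 7.03 in WT frontal cortex, striatum and hippocampus and 46.7% ± 1.25, 29.7% ± 2.09 and 38.2% ± 5.22 in the mutants. The hippocampal ranges of that share overlapped, from 21.5% to 35.4% in WT mice and from 35.0% to 44.3% in mutants. These shares use the summed exon length, rest on the levels that chose the members and are descriptions. Those of the synthases also take the uncertain level of *Cers1* as counted.

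**Figure D3:**
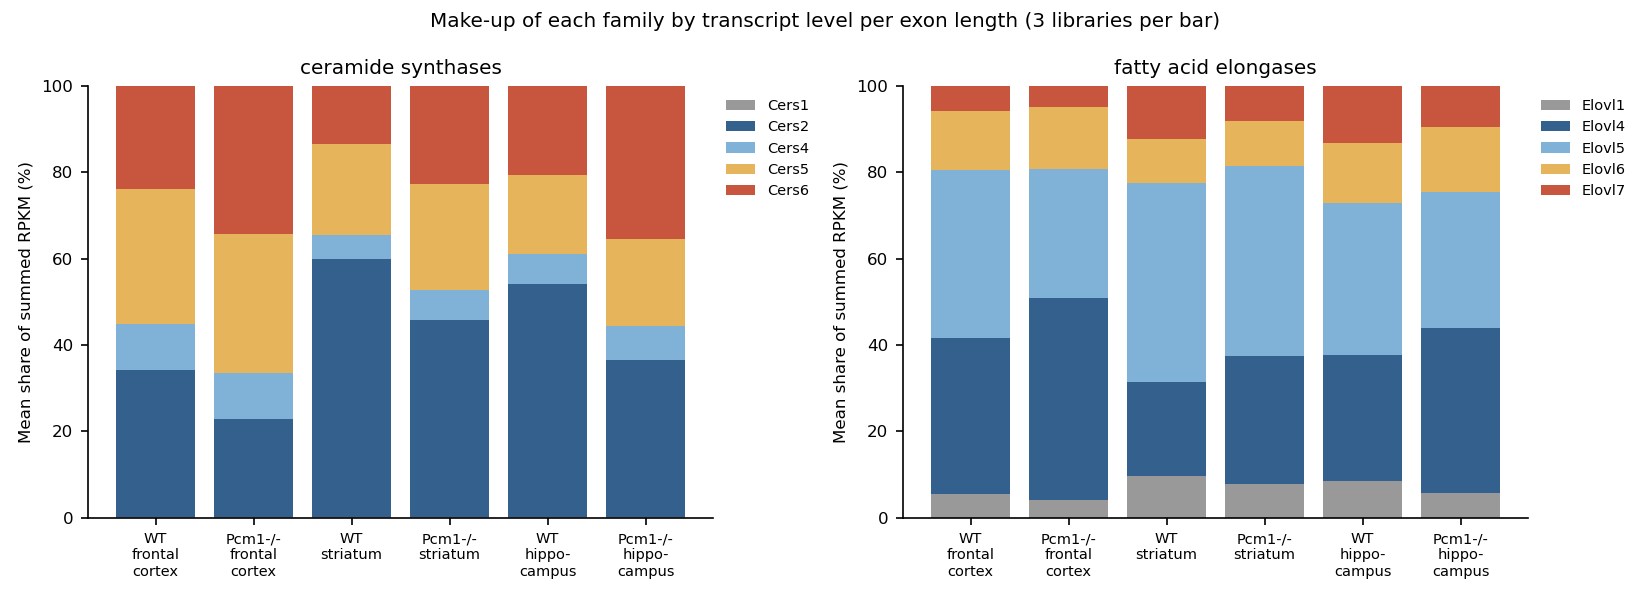
Mean share of each gene in the summed RPKM of the 5 ceramide synthases (left) and the 5 fatty acid elongases (right), 1 stacked bar per genotype and region, 3 libraries each. The *Cers6* share ran from 13.4% in WT striatum to 35.4% in Pcm1-/- hippocampus, and the *Cers2* share from 22.7% in Pcm1-/- frontal cortex to 59.8% in WT striatum. The uncertain level of *Cers1* entered the left panel as counted.

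Between the genotypes, *Cers6* was higher in every mutant library than in every WT library of its region. The mutant mean was 114 ± 8.07 CPM against 60.9 ± 3.51 CPM in the frontal cortex, 78.2 ± 5.56 against 45.6 ± 2.45 CPM in the striatum and 136 ± 8.53 against 69.7 ± 6.13 CPM in the hippocampus (SD, n = 3 each). The log2 differences were 0.90 ± 0.0701, 0.78 ± 0.0712 and 0.95 ± 0.0851 (SE), and over all settings they stayed between 0.72 and 1.01. Within lane 4, frontal cortex gave 57.8 CPM in the WT library and 106.5 CPM in the mutant one. Within lane 5 it gave 64.7 CPM in WT and 122.6 and 114.3 CPM in mutants. In the hippocampus, lane 3 gave 64.7 CPM in WT and 135.7 and 144.6 CPM in mutants, and lane 5 gave 68.0 and 127.5 CPM.

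*Elovl4* was also higher in every mutant library of each region. Its means were 104.5 ± 3.55 against 69.8 ± 1.54 CPM in the frontal cortex, 75.4 ± 4.64 against 60.3 ± 5.98 CPM in the striatum and 94.5 ± 13.5 against 71.6 ± 12.01 CPM in the hippocampus. The log2 differences were 0.57 ± 0.0517, 0.32 ± 0.0828 and 0.38 ± 0.143, and over all settings they ran from 0.55 to 0.61, from 0.27 to 0.41 and from 0.25 to 0.47. The lowest hippocampal value was that without WT hippocampus replicate 1. Within lane 4 the cortical values were 71.0 CPM in WT and 100.5 CPM in the mutant, and within lane 5 they were 70.4 CPM and 107.3 and 105.8 CPM. In the hippocampus, where the groups were separated by a gap of 81.5 to 84.7 CPM, lane 3 gave 58.3 CPM in WT and 84.7 and 109.9 CPM in mutants, and lane 5 gave 75.1 and 88.7 CPM.

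The other synthases and elongases fell on both sides of 0. In frontal cortex, striatum and hippocampus, in that order, *Cers4* was higher in the mutants by 0.42 ± 0.0638, 0.35 ± 0.111 and 0.31 ± 0.101, without overlap of libraries in any region. *Cers5* differed by 0.40 ± 0.0949, 0.23 ± 0.107 and 0.29 ± 0.119, with overlap in the striatum. *Cers1* and *Cers4* lie on the chromosome of *Pcm1*, 28.98 and 36.71 Mb from it, and the other members on other chromosomes. On the other side, *Cers2* differed by −0.22 ± 0.0696, −0.37 ± 0.118 and −0.43 ± 0.176, *Elovl1* by −0.19 ± 0.105, −0.43 ± 0.142 and −0.61 ± 0.211, and *Elovl5* by −0.19 ± 0.122, −0.19 ± 0.0909 and −0.20 ± 0.103. Without WT hippocampus replicate 1 the hippocampal values of *Cers2*, *Elovl1* and *Elovl5* were −0.27, −0.40 and −0.12. Without WT frontal cortex replicate 1 the cortical values of *Elovl1* and *Elovl5* were −0.11 and −0.0040. The striatal value of *Elovl5* was −0.11 without WT striatum replicate 2, and that of *Cers5* 0.14 without WT striatum replicate 3 and 0.41 in a fit of all libraries with lane. *Elovl6* had values of both signs, with 0.25 ± 0.0613, −0.10 ± 0.0793 and 0.094 ± 0.0725 in the same order, and over the settings the striatal value ran from −0.16 to −0.039 and the hippocampal one from 0.057 to 0.13. *Elovl7* had −0.040 ± 0.101, −0.73 ± 0.279 and −0.54 ± 0.413. Its cortical value ran from −0.12 without mutant replicate 1 to 0.0079 without mutant replicate 3, its striatal value from −0.96 without WT replicate 1 to −0.29 without WT replicate 3, and its hippocampal value from −0.88 without mutant replicate 3 to −0.13 without WT replicate 1.

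Passing the threshold over all genes in the frontal cortex were 3 members, *Cers4*, *Cers6* and *Elovl4*, where 1.74% of all genes passed. In the striatum and in the hippocampus it was *Cers6* alone, with 0.0285% and 0.0171% of all genes. The striatal call was lost without any 1 of the 6 libraries, and the hippocampal one without any of 5 of the 6, all but mutant replicate 3. Since the members were chosen on this contrast, nothing is read from these counts.

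**Figure D4:**
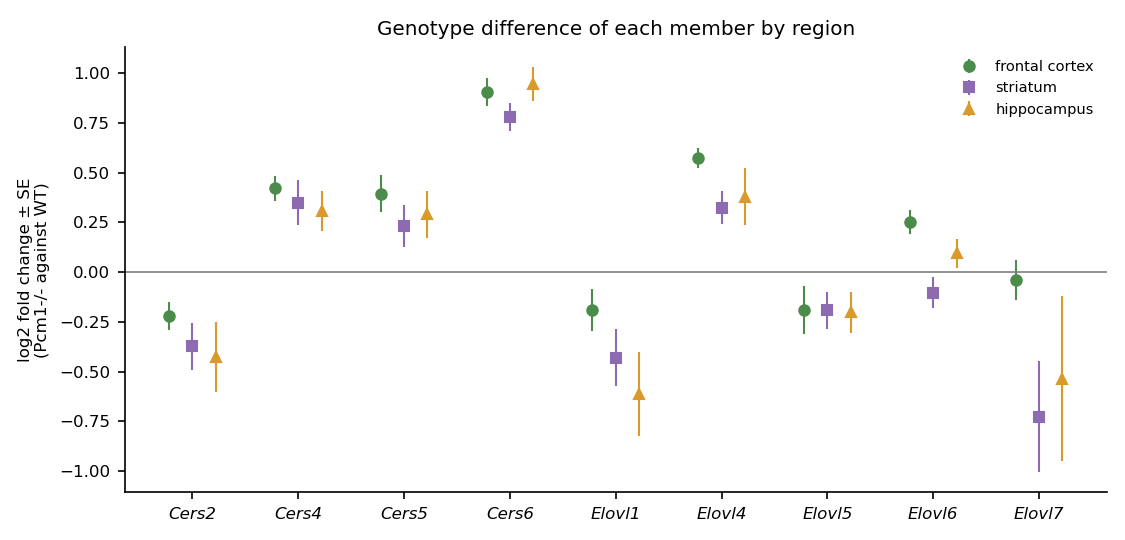
Log2 fold change of Pcm1-/- against WT with its SE for the 9 members tested, in the frontal cortex (circles), striatum (squares) and hippocampus (triangles), each from a fit of the 6 libraries of the region; these values chose the members and carry no test. *Cers6* stood at 0.90, 0.78 and 0.95, *Elovl4* at 0.57, 0.32 and 0.38, and *Cers2* and *Elovl1* below 0 in all 3 regions.

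*Cers2* and *Elovl1*, with lower values in the mutants, were set beside the markers of oligodendrocytes and myelin. The 9 markers summed to 2675, 2148 and 2007 CPM in WT frontal cortex and to 1796, 1906 and 1899 CPM in mutant frontal cortex. In the striatum the sums were 9881, 9754 and 9693 CPM against 5875, 9530 and 6873 CPM, and in the hippocampus 10168, 5115 and 8369 CPM against 5413, 3862 and 6339 CPM. All 9 markers had a lower mean in the mutants in each region, and by edgeR's quasi-likelihood test 0 passed in any region at an adjusted p under 0.05. At an unadjusted p under 0.05, 6, 6 and 2 of them were lower in frontal cortex, striatum and hippocampus, as were 1310, 1224 and 887 of all 17545 genes. No marker was at 0 in any group. In the striatum, the mutant library with the largest sum, replicate 2, also had the highest *Cers2* and *Elovl1* of its group. The part of these markers in the lower values of *Cers2* and *Elovl1* was not tested. Neuronal markers summed to 7431 to 8578 CPM in WT and 8761 to 9065 CPM in mutant frontal cortex, and in the other regions the genotypes overlapped. Sums of other cell types were also lower in the mutants without overlap. The 6 microglial markers summed to 386 to 505 CPM in WT and 335 to 381 CPM in mutant frontal cortex. The 4 endothelial markers summed to 136 to 192 against 121 to 130 CPM in the frontal cortex and to 114 to 166 against 94.2 to 107 CPM in the hippocampus. The 6 astrocyte markers summed to 1999 to 2638 against 1801 to 1933 CPM in the striatum and to 2606 to 3161 against 2477 to 2589 CPM in the hippocampus. The 5 hippocampal markers, low outside their region, summed to 19.9 to 20.5 against 16.0 to 16.7 CPM in the frontal cortex and to 37.0 to 55.6 against 28.8 to 32.8 CPM in the striatum. Other sums were higher in the mutants without overlap. In the striatum the 6 striatal markers summed to 5162 to 6128 CPM in WT and 6244 to 6675 CPM in mutant libraries, and the 7 cortical markers to 203 to 206 and 211 to 254 CPM. No marker of these lists was at 0 in any group, and their part in the values of the members, *Cers6* and *Elovl4* included, was not tested.

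**Figure D5:**
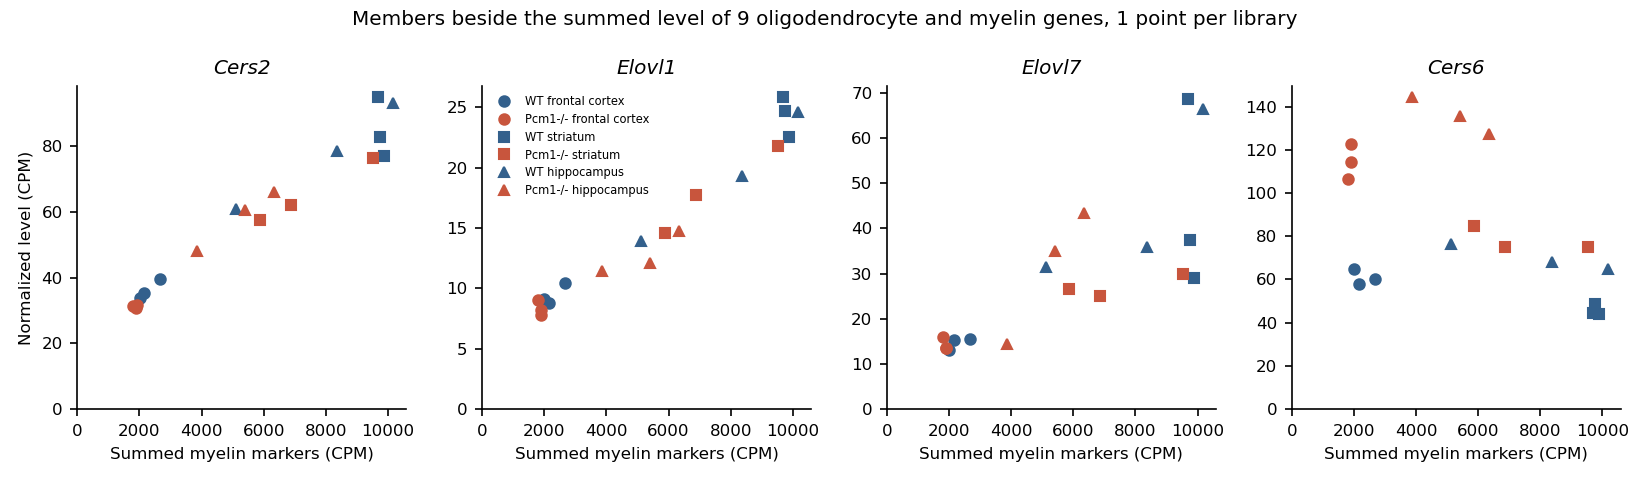
Normalized level of *Cers2*, *Elovl1*, *Elovl7* and *Cers6* (CPM) against the summed level of 9 oligodendrocyte and myelin genes (CPM), 1 point per library, with the region by shape and the genotype by color. *Cers2* and *Elovl1* were higher in libraries with a larger sum, in both genotypes, *Elovl7* reached 68.8 and 66.5 CPM in 2 WT libraries, and the mutant libraries of *Cers6* lay above the WT libraries of the same region.

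Across the 18 libraries, which share regions, animals and depth, the pattern of each member was compared with 12870 genes by Pearson's r of log2 CPM, as a description over 6 groups. *Cers2* was most like *Ermn*, which codes for ermin of oligodendrocytes (r = 0.994), *Evi2a* (0.994) and *Myrf*, the myelin regulatory factor (0.993). *Ermn* is itself one of the 9 myelin markers. *Elovl1* was most like *Gatm*, an enzyme of creatine synthesis (0.985), *Hapln2*, of the nodal matrix of myelinated axons (0.980), and *Gltp*, a glycolipid transfer protein (0.979). *Elovl7* was most like *Pcolce2*, *Ctnnal1* and *Efemp2* (0.976 to 0.971). *Cers2* and *Elovl1* had r = 0.968 with each other, and *Cers2* and *Elovl7* 0.920.

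*Cers6* was most like *Chrm1*, the M1 muscarinic receptor (r = 0.971), *Gdpd1*, a phosphodiesterase of glycerophospholipids (0.964), and *Npy5r*, a neuropeptide Y receptor (0.946). *Elovl4* was most like *Ric3*, a chaperone of nicotinic receptors (0.957), *Dnajc18* (0.925) and *Ociad1* (0.925). *Cers6* and *Elovl4* had r = 0.883 with each other, and *Cers4* and *Elovl5* ran opposite with −0.834. *Cers4* was most like *Tmem63b*, *Uxs1* and *Cyp51* (0.939 to 0.930), *Cers5* like *Leprotl1*, *Atp6v0b* and *Dirc2* (0.913 to 0.905), *Elovl5* like *Taf4*, *Ikzf1* and *Txnrd1* (0.971 to 0.957) and *Elovl6* like *Fndc5*, *Zbtb2* and *Jun* (0.908 to 0.888). The genotype contrast that chose the members is part of these correlations.

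The enzymes around the members were taken from 7 lists of 65 genes, 64 of them tested. In WT mice 37 of them differed between striatum and frontal cortex, 22 higher and 15 lower in the striatum, with a median log2 difference of 0.13 against 0.018 over all genes, of which 48.3% differed. Between hippocampus and frontal cortex 31 differed, 20 higher and 11 lower, beside 37.7% of all genes. Between striatum and hippocampus it was 25, 14 higher and 11 lower in the striatum, beside 35.9% of all genes, and 16 without WT hippocampus replicate 2, where 5617 of all genes passed against 6300. In mutants the same comparisons gave 34 genes, 17 higher and 17 lower, then 30, 13 higher and 17 lower, and 29, 14 higher and 15 lower, with medians of 0.035, −0.020 and −0.031. Of all genes, 51.0%, 37.8% and 41.5% differed in these mutant comparisons, with medians of 0.016, 0.011 and −0.0048. In WT striatum against frontal cortex, genes of sphingoid base synthesis gave 5 higher and 1 lower of 11, genes that use ceramide 4 higher and 1 lower of 9, and genes of ceramide breakdown 4 of each of 15. The partners of the elongation cycle gave 2 lower of 6, the desaturases 2 of each of 6, fatty acid synthesis and activation 4 higher and 5 lower of 12, and peroxisomal breakdown of very long chains 3 higher of 5.

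*Smpd3*, the neutral sphingomyelinase that releases ceramide, had the smallest p, with 333 ± 56.7 CPM in WT striatum and 80.1 ± 3.18 CPM in WT frontal cortex (log2 2.05 ± 0.112, adjusted p 1.98e-10). *Acsl5* and *Acsl4*, acyl-CoA synthetases that activate fatty acids, were lower in the striatum by −1.62 (adjusted p 4.92e-10) and −1.03 (adjusted p 4.96e-08). In the hippocampus against the frontal cortex, *Fa2h*, which hydroxylates the fatty acids of myelin, was higher by 1.74 ± 0.203 (adjusted p 4.88e-06), *Ugt8a*, which makes galactosylceramide, was higher by 1.44 ± 0.176 (adjusted p 7.99e-06), and *Acsl5* lower by −0.73 (adjusted p 1.07e-05). In the striatum against the hippocampus, *Smpd3* was higher by 1.57 (adjusted p 5.05e-09), *Acly*, which makes cytosolic acetyl-CoA, higher by 0.97 (adjusted p 2.13e-08), and *Acsl4* lower by −0.90 (adjusted p 2.94e-07).

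Of the same 64 genes, 5 rose in the frontal cortex of Pcm1-/- mice and 0 fell, where 1.74% of all genes passed, 247 higher and 59 lower. In 1 fit of all 18 libraries 3 pathway genes passed, and 0 with lane as a covariate, where 176 and 95 of all genes passed. The 5 genes that rose in the fit of the cortical libraries alone were *Ugcg*, which makes glucosylceramide from ceramide (0.36 ± 0.0539, adjusted p 0.0195), *Slc27a4*, which takes up and activates long fatty acids (0.30 ± 0.0478, adjusted p 0.0226), *Kdsr* and *Degs1*, the ketone reductase and the desaturase on either side of the ceramide synthase step (0.39 ± 0.0660, adjusted p 0.0278, and 0.30 ± 0.0537, adjusted p 0.0368), and *Hsd17b12*, the ketone reductase of the elongation cycle (0.29 ± 0.0546, adjusted p 0.0399). Leaving out 1 library gave from 0 to 9 such genes, namely 9 without WT replicate 3, where 825 of all genes passed, 1 without WT replicate 1, where 88 passed, and 0 without WT replicate 2 or any 1 of the 3 mutant libraries, where 71, 11, 27 and 54 passed. In the striatum 0 of the 64 passed with edgeR and 3 with DESeq2, which called 488 of all 17545 genes there. At an unadjusted p under 0.05 by edgeR's quasi-likelihood test, 4 were higher and 14 lower, beside 1147 and 1224 of all genes. In the hippocampus 0 passed in the edgeR fit of that region or with DESeq2, the latter calling 212 of all genes. In 1 edgeR fit of all 18 libraries with lane, 1 passed, with 160 of all genes. At an unadjusted p under 0.05 in the edgeR fit of that region, 6 were higher and 6 lower, beside 849 and 887 of all genes. Of the 5 genes that rose in the cortex, *Kdsr* stood at 0.36 and 0.25, *Ugcg* at 0.23 and 0.19, *Slc27a4* at 0.13 and 0.12, *Degs1* at −0.050 and 0.0043 and *Hsd17b12* at −0.17 and −0.033 in striatum and hippocampus, and none of these passed. *Fa2h* and *Ugt8a* stood at −0.43 and −0.46 in the striatum and at −0.62 and −0.53 in the hippocampus, which did not pass either.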

How the data were processed

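Gene expression was measured by RNA sequencing of poly(A) RNA with a stranded kit in 18 mouse brain libraries. The authors trimmed reads with Trim Galore and Cutadapt, used STAR for alignment to GRCm38, dropped reads with several positions, and deposited raw counts per Ensembl gene from HTSeq. Tool versions and the strand setting of the counting are not given in the sources used here. Totals that name no gene (10.8% to 13.2% of reads, on no gene or on several) were left out.

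Symbols, positions and exon lengths came from GENCODE M21 on the same build, another release than the authors' one, and 36723 of 38561 genes matched. Tests were made in R 4.3.3 by edgeR 4.0.16 (TMM, quasi-likelihood test), for regions in 1 fit of 18 libraries and for genotypes region by region. Genes that reached 10 counts in any library were tested (17545), with Benjamini-Hochberg adjustment over them and a threshold of 0.05. Log2 CPM used a prior count of 2. The steps were tested on simulated counts. Alternatives were DESeq2 1.42.0, its size factors, other filters and thresholds, lane, other sets of libraries, blocks, and each library left out. Figures were drawn with matplotlib 3.10.9. The spread between animals sets the precision.

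The deposited library names identify the animal. Libraries of 1 animal correlated between regions, after removal of group means, at 0.267 on average in WT mice and 0.198 in mutants, and libraries of different animals at −0.133 and −0.0979. The animal block is an alternative.

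The members and lists were chosen with earlier results of these data known. Named are the members, the other genes of both families, pathway genes past the threshold between genotypes (at most 6 per region), the 3 pathway genes with the smallest p per WT comparison of regions, and the 3 genes most like each member among those with a mean log2 CPM of at least 1.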

Additional observations from a re-analysis of the deposited data

How the results depend on the processing

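Of the log2 fold changes between regions recomputed under the alternatives, 1330 kept their direction and side of the threshold, 53 lost the call, 12 gained one and 9 changed sign. Of those between genotypes, 342 moved by less than the SE of the main log2 fold change and 9 by more. A large SE hides a large shift, as for Elovl7 in the hippocampus, with −0.54 ± 0.413 and −0.13 without WT hippocampus replicate 1. Of the levels per kilobase, 42 of 120 moved by more than the spread between replicates, all with the length of the longest transcript. The causes were not tested.

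The changes of sign were all near 0 or uncalled. For Elovl4 in WT hippocampus against frontal cortex the value was −0.069 without WT hippocampus replicate 2 and −0.0040 without replicate 3, within a range over all settings of −0.069 to 0.17. For Cers2 in WT striatum against hippocampus it was −0.0084 without WT hippocampus replicate 2, within a range of −0.0084 to 0.29. For Elovl7 in the same comparison it was −0.0039 with the animal as a block, −0.018 with only the 6 libraries, −0.42 without WT striatum replicate 3, −0.17 without WT hippocampus replicate 2 and −0.11 without replicate 3, within a range of −0.42 to 0.42. For Elovl7 in mutant striatum against hippocampus it was 0.13 without mutant hippocampus replicate 3, within a range of −0.53 to 0.13.

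Requiring a change of at least 1.5-fold left 3 members in WT hippocampus against frontal cortex, 1 in WT striatum against hippocampus and, in mutants, 4, 3 and 1 for striatum against frontal cortex, hippocampus against frontal cortex and striatum against hippocampus. It left 19, 10 and 9 pathway genes in WT mice for the same pairs of regions. Over all genes it left 4882, 3554 and 3507 in WT mice and 5240, 3580 and 4134 in mutants, from 8468, 6618 and 6300 and from 8956, 6624 and 7284. An adjusted p under 0.01 left 2 members in mutant hippocampus against frontal cortex, 3 in mutant striatum against hippocampus, and 19 and 12 pathway genes in WT hippocampus against frontal cortex and WT striatum against hippocampus. Lane as a covariate left 4 members in mutant hippocampus against frontal cortex and 16 pathway genes in WT striatum against hippocampus, where only the 6 libraries compared gave 11. Over all genes the stricter p left 4585, 5374, 4465 and 4531, lane 5664 and 5597, and the 6 libraries 4374.

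Between genotypes in the frontal cortex, the members called were 1 with 1 fit of all libraries and lane, and 5 with DESeq2. The pathway genes were 3 with 1 fit of all libraries, 0 with lane added, 8 without the filter and 9 with DESeq2. Over all genes these settings called 176, 95, 544 and 687 genes in that order, against 306. In the striatum DESeq2 called 2 members and 3 pathway genes, with 488 of all genes against 5, and in the hippocampus 1 fit of all libraries with lane called 1 pathway gene, with 160 of all genes against 3. With the replicate number as a block, the frontal cortex gave 5 members and 9 pathway genes, with 665 of all genes, and the striatum 0 members, with 3 of all genes, and no other count of members or pathway genes moved by over 1.5 times. Same-numbered libraries of both genotypes correlated at 0.043 to 0.260 in the frontal cortex, 0.096 to 0.507 in the hippocampus and −0.27 to 0.18 in the striatum. The means were 0.167 and 0.265 in the first 2 regions, where libraries of different numbers gave −0.0833 and −0.130. The lowest values there were under 0.1, and the numbers were not taken as pairs in the main fits. That limit does not decide the pairing, since WT libraries of 1 animal went down to 0.0801 between regions. In the striatum the WT numbers name other animals than in the other regions, so the striatal value and block do not bear on the pairs of those regions, and matched through the animals the striatal correlations were 0.063 to 0.388.

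Leaving out each library in turn gave, between genotypes, 2 to 4 members in the frontal cortex, 0 to 0 in the striatum and 0 to 1 in the hippocampus, and 0 to 9, 0 to 0 and 0 to 0 pathway genes, with 11 to 825, 2 to 5 and 1 to 11 of all genes. Between WT regions it gave 6 to 6, 4 to 5 and 3 to 5 members and 31 to 37, 22 to 33 and 16 to 26 pathway genes for striatum against frontal cortex, hippocampus against frontal cortex and striatum against hippocampus, with 7465 to 8739, 5422 to 6885 and 5330 to 6525 of all genes. In mutants it gave 7 to 9, 3 to 7 and 3 to 6 members, with 7846 to 9221, 5321 to 6935 and 6302 to 7577 of all genes. Cers1 did not pass the filter on low counts and was not tested.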
